A study of Mus musculus with 6 samples.

Results

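The 67 genes described here are the replication-dependent histone genes of the mouse, defined as protein-coding genes whose symbol begins Hist1h, Hist2h, Hist3h or Hist4h. They were 67 of 21938 protein-coding genes in the annotation, which left 21871 others for comparison. The Hist1 cluster on chromosome 13 held 54 of them, the Hist2 cluster on chromosome 3 held 10, the Hist3 pair lay on chromosome 11, and Hist4h4 stood alone on chromosome 6. By the protein encoded, 6 were linker histone H1 genes, 18 were H2A, 18 were H2B, 12 were H3 and 13 were H4.

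Replication-dependent histone genes supply the histones that package newly copied DNA. They are switched on together as cells enter S phase, at a nuclear structure called the histone locus body, and their mRNAs end in a stem loop in place of a poly(A) tail. Many H2A and H2B genes are arranged head to head, so that a pair is transcribed in opposite directions from the DNA between their starts.

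The data came from CUT&RUN, in which an antibody brings a nuclease to the DNA beside a bound protein and the cut fragments are sequenced. It was carried out for GATA4 and for GATA6, zinc finger transcription factors of the primitive endoderm, in mouse extra-embryonic endoderm (XEN) cells, to find genes that the factors may occupy before reprogramming. The labels give 3 libraries for each factor, 6 in all, each from 500000 cells of the XEN line 3F2 and each with called regions of its own, beside 1 combined list for each factor. Lines of the 3F series carry a doxycycline-inducible reprogramming cassette (Col1a1 TetO-OKSmCh), the transactivator R26 M2rtTA and an Oct4-GFP reporter, and both groups share these alleles. No treatment or time point separates the libraries, and in the labels the groups differ only in the antibody target. The GATA4 and GATA6 antibodies came from different suppliers, so a difference between the groups takes in the antibody. The study's methods name a further line, 3F6, and fewer replicates, so the 3 replicates were taken as the labels give them. Nothing states that they came from separate cultures, and p-values then measure only the spread between libraries. The identity of the cells could not be checked against RNA markers, since the lists hold DNA regions only.

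A gene was counted when the midpoint of a called region lay within 1 kb of one of its annotated transcript starts. The DNA between paired starts, or before the start of a single gene, is printed here because most regions at these genes had their maximum signal in or beside it. In the lines that follow, capitals mark every GATA word, CCAAT box, TATAAA box and octamer, each sought on both strands, with overlaps between kinds allowed. The GATA words were AGATAA and its form AGATAG, and the same pair with T as the first base, which reads TGATAA and in its other form TGATAG. The octamer was ATTTGCAT, the element of H2B promoters that OCT1 reads, and CCAAT and TATA boxes are likewise known parts of histone promoters. The pair of Hist1h2ae and Hist1h2bg (chr13:23571221-23571395, plus strand, GRCm38, which is mm10), the single gene Hist1h2bb (chr13:23746584-23746733, plus strand) and Hist4h4 (chr6:136804416-136804565, minus strand) had a region in all 6 libraries. The bases between Hist1h2ak and Hist1h2bn (chr13:21753828-21754122, plus strand) and those before Hist1h4h (chr13:23530900-23531049, plus strand) did so too. Among these, a GATA word occurred in the Hist1h2ae and Hist1h2bg sequence only.
Hist1h2ae/Hist1h2bg: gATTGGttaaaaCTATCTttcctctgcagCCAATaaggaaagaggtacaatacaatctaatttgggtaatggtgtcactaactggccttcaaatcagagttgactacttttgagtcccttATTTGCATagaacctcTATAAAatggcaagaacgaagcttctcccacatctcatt
Hist1h2ak/Hist1h2bn: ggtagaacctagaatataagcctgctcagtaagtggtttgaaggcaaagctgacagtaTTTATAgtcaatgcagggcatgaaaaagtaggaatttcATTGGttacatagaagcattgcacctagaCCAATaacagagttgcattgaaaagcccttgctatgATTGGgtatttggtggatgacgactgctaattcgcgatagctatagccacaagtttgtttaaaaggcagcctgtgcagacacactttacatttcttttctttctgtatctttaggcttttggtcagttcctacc
Hist1h2bb: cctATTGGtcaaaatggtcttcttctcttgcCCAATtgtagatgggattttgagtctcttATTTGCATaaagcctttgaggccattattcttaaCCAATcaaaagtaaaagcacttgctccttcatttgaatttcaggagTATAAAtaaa
Hist1h4h: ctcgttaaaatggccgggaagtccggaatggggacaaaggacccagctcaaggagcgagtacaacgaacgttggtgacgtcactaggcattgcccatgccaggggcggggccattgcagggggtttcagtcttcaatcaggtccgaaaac
Hist4h4: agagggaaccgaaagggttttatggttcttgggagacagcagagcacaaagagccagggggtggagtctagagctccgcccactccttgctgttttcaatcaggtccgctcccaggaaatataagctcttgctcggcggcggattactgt

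For contrast, the Hist2h2ac and Hist2h2be pair (chr3:96220881-96221118, plus strand) is shown because its combined region was in the GATA4 list only. The other contrasts had no region in any library. They are the pair of Hist1h2bq and Hist1h2ao (chr13:21810198-21810464, plus strand), within a block of duplicated genes, and the testis histone pair of Hist1h2ba and Hist1h2aa (chr13:23934160-23934459, plus strand, the central 300 bases between the starts). All 3 sequences hold CCAAT boxes and none holds a GATA word.
Hist2h2ac/Hist2h2be: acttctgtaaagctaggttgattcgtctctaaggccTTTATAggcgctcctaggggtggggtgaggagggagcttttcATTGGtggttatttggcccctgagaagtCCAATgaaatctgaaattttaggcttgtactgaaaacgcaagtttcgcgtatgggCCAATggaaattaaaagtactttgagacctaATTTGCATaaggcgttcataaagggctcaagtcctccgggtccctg
Hist1h2bq/Hist1h2ao: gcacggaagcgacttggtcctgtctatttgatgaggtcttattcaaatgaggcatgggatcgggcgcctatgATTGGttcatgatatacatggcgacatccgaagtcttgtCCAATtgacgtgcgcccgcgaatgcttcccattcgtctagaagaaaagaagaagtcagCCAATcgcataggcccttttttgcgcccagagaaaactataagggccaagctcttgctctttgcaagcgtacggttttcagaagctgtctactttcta
Hist1h2ba/Hist1h2aa: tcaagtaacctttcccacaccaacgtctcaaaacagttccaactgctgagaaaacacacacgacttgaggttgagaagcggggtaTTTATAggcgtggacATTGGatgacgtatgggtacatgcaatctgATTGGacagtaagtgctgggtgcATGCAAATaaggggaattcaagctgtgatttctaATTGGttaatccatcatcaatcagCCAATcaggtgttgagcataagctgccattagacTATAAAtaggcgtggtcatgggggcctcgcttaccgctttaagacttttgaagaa

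The share of histone genes with a combined region was above that of other genes for GATA4. For GATA6 it was next to that of other genes, with a count that 1 library could move. In the GATA4 combined list, which keeps regions found in all 3 GATA4 libraries, 28 of 67 histone genes had a region (41.8%, exact 95% interval 29.8 to 54.5), against 19.2% of the 21871 other genes. In the GATA6 combined list 9 of 67 had one (13.4%, 6.33 to 24.0), against 13.5%. The histone share was thus 22.6 percentage points above the other genes for GATA4 and differed by -0.110 points for GATA6. Without GATA6 replicate 1, 2 or 3 the GATA6 list held 16, 13 and 17 histone genes, and the excess was 6.43, 0.949 and 8.03 points. The GATA4 excess kept its sign in each alternative run and was smallest with shorter library lists, at 14.3 points for lists of equal length (42446 regions) and 11.2 points for the 21223 regions of highest total signal. These intervals are of the Clopper-Pearson kind and cover counting error over genes only. Neighbouring histone genes share regions, so the genes are not independent of each other.

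In both lists at once there were 8 histone genes (11.9%), against 10.2% of other genes. They were the pairs Hist1h2ak with Hist1h2bn and Hist1h2ae with Hist1h2bg, together with Hist1h2bb, Hist1h4h, Hist2h2bb and Hist4h4. A single gene, Hist2h3b, was in the GATA6 list without being in the GATA4 list. Its region, chr3:96269304-96270004, was the one at Hist2h2bb, and the maximum lay between 941 and 981.5 bp downstream of the Hist2h3b start in the GATA6 libraries that counted it.

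**Figure D1:**
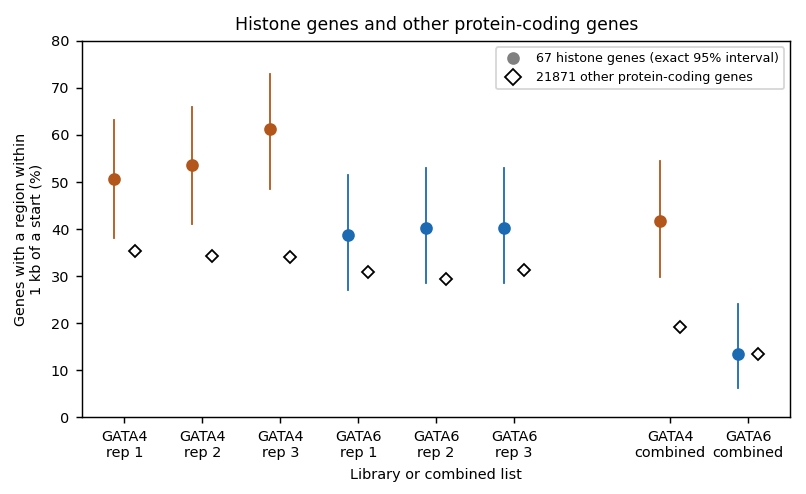
Percent of genes with a region within 1 kb of a transcript start, for 67 histone genes (filled circles with exact 95% intervals) and 21871 other protein-coding genes (open diamonds), in each of 6 libraries and in the combined lists. The histone share lies above the diamond in all 6 libraries and in the GATA4 combined list (41.8% against 19.2%), while the GATA6 combined list has 13.4% against 13.5%.

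In the single libraries the histone share was above that of other genes for both factors. Its exact interval lay wholly above that of other genes for GATA4 only. These intervals treat genes that share a region as independent, and they do not compare the factors. GATA4 replicates 1, 2 and 3 had a region at 34, 36 and 41 histone genes (50.7%, 53.7% and 61.2%), where 35.3%, 34.2% and 34.1% of other genes had one. GATA6 replicates had 26, 27 and 27 (38.8%, 40.3% and 40.3%), where 30.8%, 29.3% and 31.3% of other genes had one. The exact 95% intervals of the histone share were 38.2 to 63.2, 41.1 to 66.0 and 48.5 to 72.9 in the GATA4 libraries, above the other genes in each. In the GATA6 libraries they were 27.1 to 51.5, 28.5 to 53 and 28.5 to 53, and each took in the share of other genes. Every GATA4 library held more histone genes than any GATA6 library. The GATA4 mean of 37.0 ± 3.61 genes exceeded the GATA6 mean of 26.7 ± 0.577 (SD, n = 3 each) by a difference of 10.3 genes (two-sided exact permutation test, p = 0.1). That p is the smallest 3 against 3 libraries can give, so no difference between the factors could pass the usual threshold here.

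GATA4 libraries also held more regions at promoters in general, 34.5% ± 0.707 of other genes against 30.5% ± 1.02 (SD, n = 3 each; exact permutation p = 0.1). The excess of the histone share over the other genes allows for that. It was 15.4, 19.6 and 27.1 points in the GATA4 replicates and 8.03, 11.0 and 9.03 points in the GATA6 replicates. The groups did not overlap, and the means of 20.7 ± 5.94 and 9.35 ± 1.51 points differed by 11.3 points (n = 3 each, exact permutation p = 0.1). With each region counted once however many genes it served, the GATA4 libraries held 30, 29 and 37 regions at histone genes and the GATA6 libraries 23, 24 and 22. Their means of 32 ± 4.36 and 23.0 ± 1 differed by 9 regions (n = 3 each, exact permutation p = 0.1). Replicate 3 was the highest GATA4 library in each of these counts, and without it the differences were 8.33 genes, 6.5 regions and 8.13 points.

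The share of histone genes with a region in all 3 libraries was above that of other genes for GATA4 and next to it for GATA6. A region in all 3 GATA4 libraries was found at 27 histone genes (40.3%), against 21.2% of other genes, and in all 3 GATA6 libraries at 10 (14.9%), against 15.3%. With regions required in at least 2 of 3 replicates in place of all 3, the GATA6 list took in 27 histone genes (40.3%), against 26.1% of other genes, an excess of 14.2 points. The GATA6 result at histone genes therefore depended on the number of replicates required.

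Genes of the GATA4 list were also compared by the GATA6 libraries that held them, as a description. Of the 28 histone genes, 2 had a region in no GATA6 library, 9 in 1, 7 in 2 and 10 in all 3 (35.7%). Of the 4199 other genes in the GATA4 list, 57.5% had a region in all 3 GATA6 libraries, and 2.83% in none. The 10 histone genes present in all 3 GATA6 libraries were present in all 3 GATA4 libraries too. Of the 3347 other genes present in all 3 GATA6 libraries, 2549 were present in all 3 GATA4 libraries. A region in all 6 libraries was found at 10 histone genes (14.9%), against 11.7% of other genes. Presence in all 3 libraries of one factor and none of the other was rare, with 1 histone gene for GATA4, Hist2h2be (1.49%, against 0.786%), and 0 of 67 for GATA6 (exact upper limit 5.36%, against 0.233%).

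**Figure D2:**
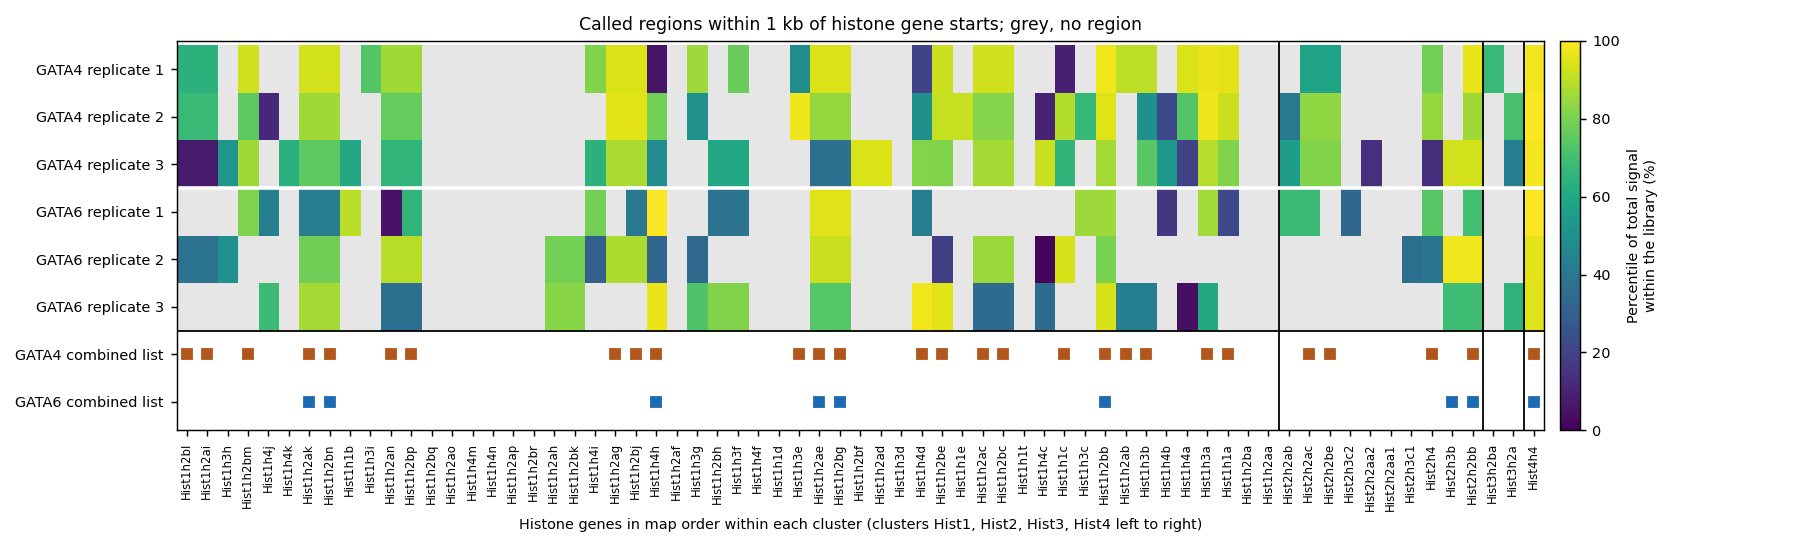
Each column is 1 of 67 histone genes in map order and each of the upper rows is 1 library, coloured by the percentile of total signal of the highest region within 1 kb (grey, no region). Squares in the lower rows mark the 28 genes of the GATA4 combined list and the 9 of the GATA6 list. Neighbouring columns of equal colour other than grey can be genes that share a region.

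Signal was low at these regions and at other promoters alike. The maximum signal, the largest number of stacked fragments in a region, ran from 3 to 13 over the histone regions of the GATA4 libraries and from 3 to 9 over those of the GATA6 libraries. Its median per library was 7, 6 and 5 for GATA4 and 5, 5 and 6 for GATA6. Signal was not scaled between libraries, so each region was ranked by its total signal among all regions of its own library, with 100 as the highest percentile. The median percentile of histone regions was 83.2, 78.7 and 64.3 in the GATA4 libraries, against 76.1, 75.7 and 75.7 for regions at other promoters. In the GATA6 libraries it was 65.4, 56.3 and 68.8, against 75.2, 73.9 and 74.8. Histone regions thus ranked below other promoter regions in all 3 GATA6 libraries and in GATA4 replicate 3, and above them in GATA4 replicates 1 and 2. Their widths did not differ between the factors beyond the spread (median 450 ± 55.1 and 436 ± 59.5 bp, n = 3 each, exact permutation p = 0.7).

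Hist4h4, an H4 gene outside the main clusters (chr6:136801553-136804415, minus strand), had the highest mean rank for both factors among histone genes with a region in all 3 libraries of the factor. Its percentiles were 98.1, 99.3 and 98.7 in the GATA4 libraries and 99.3, 95.9 and 95.3 in the GATA6 libraries. The means were 98.7 ± 0.567 and 96.8 ± 2.19 (SD, n = 3 each), so the factors overlapped. It ranked first among histone genes in each GATA4 library and first in no GATA6 library, where Hist1h4h, Hist2h2bb and Hist1h4d led replicates 1, 2 and 3 at 99.4, 97.9 and 97.9. The maximum signal was 7, 13 and 9 in the GATA4 libraries and 7, 8 and 9 in the GATA6 libraries. Its combined regions, chr6:136803766-136805560 for GATA4 and chr6:136803294-136804722 for GATA6, were among the widest at histone genes.

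Hist1h2bb, an H2B gene (chr13:23746734-23747241, plus strand), came next for GATA4 among the genes seen in every library. It ranked at 97.9, 95.1 and 86.6 with GATA4 and at 85.5, 79.7 and 93.9 with GATA6. The maximum signal was 11, 10 and 6 in the GATA4 libraries and 5, 6 and 7 in the GATA6 libraries. All 6 maxima fell between -132 bp (upstream) and 64.5 bp (downstream) of its start.

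The H2A and H2B pair of Hist1h2ae (chr13:23570517-23571220, minus strand) and Hist1h2bg (chr13:23571396-23572013, plus strand) shared one region in each library. It ranked at 94.6, 84.3 and 36.4 in the GATA4 libraries and at 95.3, 92.1 and 73.5 in the GATA6 libraries. GATA4 replicate 3 was the low value, and the GATA6 mean of 87.0 ± 11.8 was the second highest for that factor. The pair of Hist1h2ak (chr13:21753435-21753827, minus strand) and Hist1h2bn (chr13:21754123-21754503, plus strand) ranked at 93.1, 85.8 and 75 for GATA4 and at 42.7, 78.2 and 86.6 for GATA6, where replicate 1 was low. The percentiles of the factors overlapped at both pairs.

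The pair of Hist1h2an (chr13:21786826-21787218, minus strand) and Hist1h2bp (chr13:21787461-21789213, plus strand) was seen in all 6 libraries but was in the GATA4 list only. It ranked at 85.6, 76.4 and 66.0 for GATA4. In GATA6 replicate 1 a region between the starts served both genes at a percentile of 4.80, and Hist1h2bp had a further region at 65.4. Replicates 2 and 3 gave 89.2 and 36.5 for both genes. The GATA6 regions were thus spread in rank and in place, with a maximum at -968 bp, upstream of the Hist1h2an start, in replicate 3 and one at 957 bp, downstream of the Hist1h2bp start, in replicate 1.

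Hist1h4h, an H4 gene (chr13:23531050-23531519, plus strand), varied widely between libraries, with an SD of 36.6 for GATA4 and 38.1 for GATA6 (n = 3 each). It ranked at 5.82, 78.7 and 48.1 with GATA4 and at 99.4, 32.3 and 97.2 with GATA6. Each factor had a library far below the others. Hist2h2bb, an H2B gene (chr3:96269752-96270132, plus strand), ranked at 96.1, 85.9 and 93.3 for GATA4 and at 69.7, 97.9 and 68.9 for GATA6, again with overlap.

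Genes that ranked high for GATA4 alone in the combined lists included Hist1h3a, an H3 gene (chr13:23761853-23762386, minus strand). It ranked at 97.1, 97.4 and 88.7 in the GATA4 libraries and at 86.0 and 60.8 in GATA6 replicates 1 and 3, with no region in GATA6 replicate 2. The pair of Hist1h2ag (chr13:22042460-22042944, minus strand) and Hist1h2bj (chr13:22043214-22043676, plus strand) ranked at 94.8, 95.8 and 87.4 for GATA4. The region between their starts was called in GATA6 replicate 2 alone, at 87.8, and Hist1h2bj had a further region at 39.9 in GATA6 replicate 1 whose maximum lay 600.5 bp downstream of its start.

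The members in the GATA4 list with no GATA6 region counted within 1 kb were Hist2h2be and Hist1h3e. Hist2h2be, an H2B gene (chr3:96221119-96223738, plus strand), ranked at 58.0, 83.3 and 80.9 for GATA4, with a maximum signal of 5, 5 and 6. Its partner Hist2h2ac, an H2A gene (chr3:96220361-96220880, minus strand), shared those regions and had 1 region in GATA6 replicate 1, with its maximum 963 bp downstream of the Hist2h2ac start. Hist1h3e, an H3 gene (chr13:23561534-23562369, minus strand), ranked at 49.1 and 97.3 in GATA4 replicates 1 and 2. Its combined region reached from 23562173 to 23563725, and the midpoint of the replicate 3 part lay over 1 kb from its start. A region of 1 GATA6 library overlapped that combined region too, with its midpoint outside the 1 kb window. The Hist3 genes were in neither list. Hist3h2a (chr11:58954685-58956830, plus strand) ranked at 71.0 and 42.7 in GATA4 replicates 2 and 3 and at 65.2 in GATA6 replicate 3, and Hist3h2ba (chr11:58948920-58949533, plus strand) at 67.7 in GATA4 replicate 1.

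By cluster, 23 of 54 Hist1 genes (42.6%) and 4 of 10 Hist2 genes (40.0%) were in the GATA4 list, and 6 (11.1%) and 2 (20%) in the GATA6 list. The 3 stretches of the Hist1 cluster, divided where starts lay over 200 kb apart, gave GATA4 shares of 38.9% (7 of 18 genes), 40.0% (2 of 5) and 45.2% (14 of 31). The 7 other protein-coding genes inside the stretches were in neither list. Hfe, Slc17a1, Slc17a2, Slc17a3, Slc17a4 and Trim38, which lie among the histone genes of the last Hist1 stretch, had no region in any library, and Trim17, between the Hist3 genes, had one in 4. Other genes on the chromosomes that carry histone genes were in the GATA4 list in 17.9% of 4526 cases and in the GATA6 list in 11.7%.

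By class, H2B genes were listed most often. In the GATA4 list were 11 of 18 H2B genes (61.1%), 8 of 18 H2A (44.4%), 2 of 6 H1 (33.3%), 4 of 13 H4 (30.8%) and 3 of 12 H3 (25%), each above the 19.2% of other genes. In the GATA6 list were 4 H2B (22.2%), 2 H4 (15.4%), 2 H2A (11.1%), 1 H3 (8.33%) and 0 H1 genes, so that the shares lay on both sides of 13.5%. In the single libraries H2B genes had regions in 12, 11 and 13 cases for GATA4 and in 8, 10 and 9 for GATA6, while H1 genes had 2, 3 and 3 and then 2, 1 and 0. Classes of 6 to 18 genes give wide intervals, and the order of the classes was not tested.

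**Figure D3:**
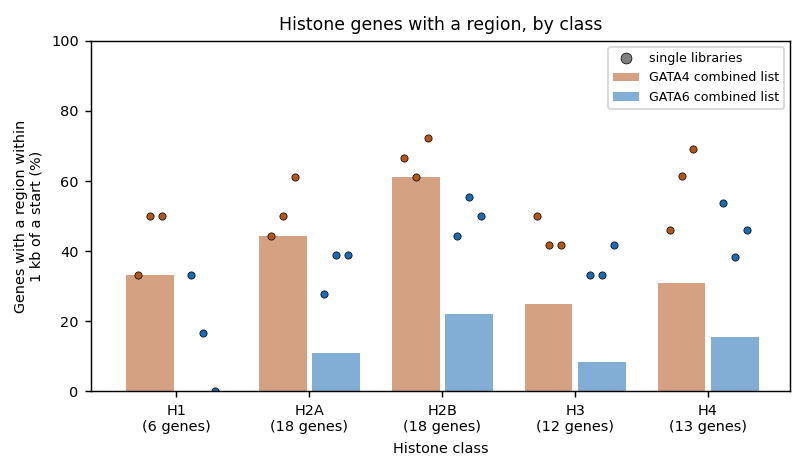
Percent of the histone genes of each class with a region within 1 kb, as bars for the combined lists and points for the 3 libraries of each factor. H2B has the tallest bars for both factors (61.1% and 22.2%), and the GATA6 bars lie below the GATA6 points of the same class except for H1, where 1 library is at 0.

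Head-to-head pairs, with starts within 1 kb on opposite strands and pointing away from each other, took in 26 histone genes in 13 pairs. In 12 pairs an H2A gene faced an H2B gene, and in the remaining one Hist1h2bh faced Hist1h3f. Their starts lay 176 to 660 bp apart. In the GATA4 list were 14 of the 26 paired genes (53.8%) and 14 of the 41 unpaired ones (34.1%). Among other genes, 48.8% of 1460 in such pairs and 17.1% of 20411 not in pairs were listed. For GATA6 the shares were 15.4% of paired and 12.2% of unpaired histone genes, against 30.4% and 12.3% of other genes. Unpaired histone genes were thus above unpaired other genes for GATA4, while paired histone genes, at 53.8%, were nearer to the 48.8% of paired other genes. Paired histone genes were below paired other genes for GATA6. That GATA6 share rested on 4 genes only, the pairs Hist1h2ak with Hist1h2bn and Hist1h2ae with Hist1h2bg, each with a shared region. With 1 locus counted for each pair, among histone genes and other genes alike, 38.9% of 54 histone loci and 18.2% of 21130 other loci were in the GATA4 list, an excess of 20.7 points. The GATA6 excess was then -0.0470 points.

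In the GATA4 list 20 distinct regions covered the 28 genes, and 8 of them served more than one gene. In the GATA6 list 6 regions covered the 9 genes, and all 6 overlapped a GATA4 combined region. Such overlap was not counted by region at other promoters. By gene, 8 of the 9 histone genes of the GATA6 list were in the GATA4 list, beside 2221 of 2962 other genes. Median widths were 748 bp (330 to 1795) and 719 bp (588 to 1579), against 719 and 690 bp at other promoters. At 6 pairs the maximum signal fell between the starts in all 3 GATA4 libraries. These were Hist1h2bl with Hist1h2ai, Hist1h2an with Hist1h2bp, Hist1h2ag with Hist1h2bj, Hist1h2ae with Hist1h2bg, Hist1h2ac with Hist1h2bc and Hist2h2ac with Hist2h2be. In all 3 GATA6 libraries it did so at Hist1h2ak with Hist1h2bn alone. The opposite pattern, a maximum between the starts in 2 GATA6 libraries and in 0 GATA4 libraries, was seen at Hist1h2ah with Hist1h2bk. Maxima between starts were not counted at pairs of other genes. Those paired other genes were also listed more often for GATA4 (48.8%) than for GATA6 (30.4%).

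Most maxima lay within 250 bp of a histone gene start, and more lay upstream than downstream in each library. The counting rule sets part of this, since only regions with a midpoint within 1 kb of a start were counted. A maximum between paired starts is also upstream of both. The same positions were not measured at other promoters. Relative to the nearest histone start, with upstream positions negative, the median position was -89.2, -76.0 and -49.5 bp in the GATA4 libraries and -17.5, -26.0 and -47.2 bp in the GATA6 libraries. The maximum was upstream for 23 of 30, 25 of 29 and 22 of 37 GATA4 regions and for 13 of 23, 15 of 24 and 12 of 22 GATA6 regions. Within 250 bp of a start were 73.3%, 82.8% and 64.9% of the GATA4 maxima and 73.9%, 66.7% and 59.1% of the GATA6 maxima. The factors therefore overlapped in this measure.

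**Figure D4:**
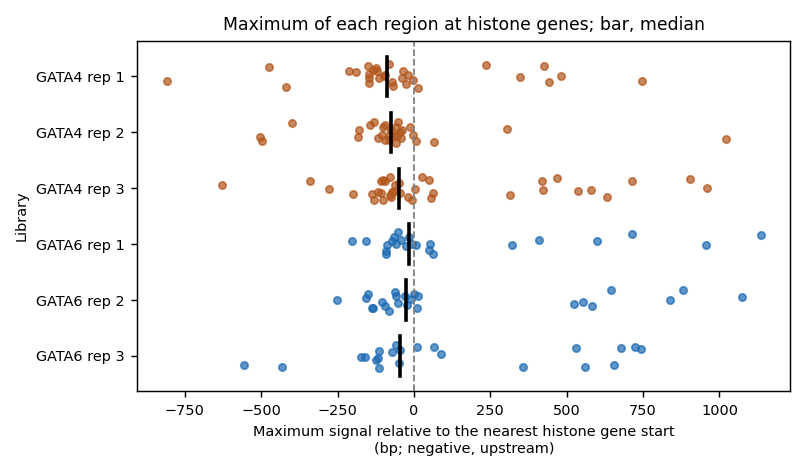
Each point is 1 region at a histone gene, placed by the distance in bp from its maximum signal to the nearest histone gene start (0, dashed line), with 1 row for each library and a bar at the median. Medians run from -89.2 to -49.5 bp in the GATA4 rows and from -47.2 to -17.5 bp in the GATA6 rows, and most points lie within 250 bp of the start.

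No library had a region at 14 of 67 histone genes (20.9%), against 42.6% of other genes. The values of these genes were seen before they were named. They were Hist1h2bq, Hist1h2ao, Hist1h4m, Hist1h4n, Hist1h2ap and Hist1h2br, which lie side by side on chromosome 13, the testis genes Hist1h1t, Hist1h2ba and Hist1h2aa, and Hist1h2af, Hist1h4f, Hist1h1d, Hist1h3d and Hist2h2aa1. Sequence that recurs in the genome moved with their absence in part. For the 2 kb around each start, the share of 50-base words, the length of a read, found at more than one place in the genome was 92.2% to 100% at the 6 neighbours on chromosome 13 and 55.5% at Hist2h2aa1. It was 0% to 17.6% at the other 7. Reads of low mapping quality had been removed from the data, and the part of this filter in the missing regions was not tested.

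Over all 67 genes the median share of recurring words was 20.7%. Of the 10 genes above 50%, 7 had a region in no library and 3 in a single library, namely Hist2h3c2 (78.1%), Hist2h3c1 (76.6%) and Hist2h2aa2 (55.8%). The 10 genes with a region in all 6 libraries had shares of 4.85% to 37.5%. With the 10 most repeated genes left out, the histone excess over other genes rose from 22.6 to 29.9 points in the GATA4 list and from -0.110 to 2.25 points in the GATA6 list. Without the 3 testis genes it was 24.6 and 0.519 points.

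**Figure D5:**
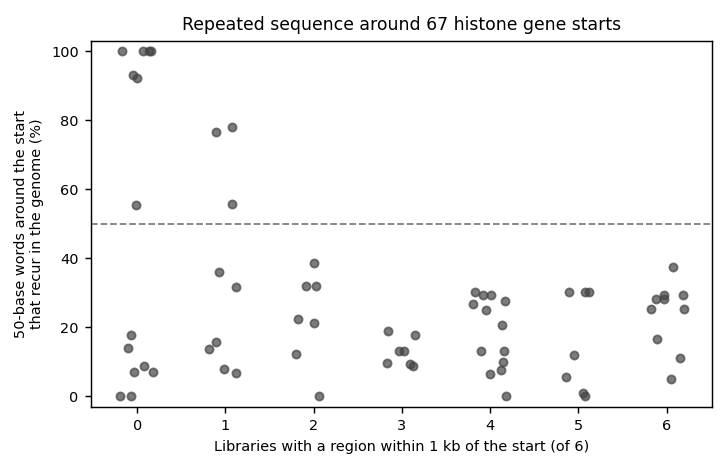
Each point is 1 of 67 histone genes, with the number of libraries (of 6) that had a region within 1 kb of its start on the x axis and, on the y axis, the percent of 50-base words in the surrounding 2 kb that recur in the genome. All 10 points above the dashed line at 50% are in the columns for 0 or 1 library, and 7 further points at 0 libraries lie at 17.6% or below.

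Histone promoters held their usual elements in larger shares than other promoters, listed or not. In the window from 250 bp before to 50 bp after the start, CCAAT was found in 56 of 67 histone promoters (83.6%), TATAAA in 37 (55.2%) and the octamer ATTTGCAT in 15 (22.4%). In 21868 other promoters the shares were 38.9%, 12.5% and 1.51%. All 18 H2A and all 18 H2B promoters held CCAAT, and the octamer was found in 7 H2A and 8 H2B promoters and in no other class. Among the 28 genes of the GATA4 list 92.9% held CCAAT and 35.7% the octamer, and among the 39 not listed 76.9% and 12.8%. The listed genes included 8 H2A and 11 H2B genes, and this contrast was not made within a class. Paired genes share part of the window and were counted separately. The GC content had a median of 45.3% at histone promoters and 55% at others.

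GATA words were found in similar shares of listed and unlisted histone promoters. One of the 4 words occurred in 18 of 67 histone promoters (26.9%), against 27.6% of other promoters. It occurred in 25% of the 28 histone genes in the GATA4 list and in 28.2% of the 39 not in it. By class the word was found in 8 of 12 H3 promoters (66.7%), the class with the lowest GATA4 share, and in 0 of 13 H4 promoters. Within 100 bp of the maximum signal, 23.3%, 17.2% and 18.9% of histone regions in the GATA4 libraries held a GATA word, where 20.9%, 21.4% and 20.7% of other promoter regions and 47.3%, 48.5% and 46.0% of regions away from promoters did. In the GATA6 libraries the histone shares were 21.7%, 25% and 27.3%, beside 18.3%, 17.5% and 18.4% at other promoters and 41.4%, 41.8% and 41.2% away from them. Histone regions were thus below regions elsewhere in all 6 libraries, and above other promoter regions in 4 and below them in 2. In each library the histone share rested on 5 to 7 regions with a word. A match is a description of the letters in the window and not of a bound site.

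Genes that act on histone gene expression were also examined. In a list of 18 genes for the histone locus body and histone mRNA 3′ end processing, 10 (55.6%) had a GATA4 combined region and 5 (27.8%) a GATA6 one, with 4 in both lists. The backgrounds remained 19.2% and 13.5%. Hinfp, which encodes an activator of H4 genes, ranked at 98.2, 97.7 and 95.9 for GATA4 and at 95.4, 99.1 and 98.9 for GATA6. Pou2f1, which encodes OCT1 (chr1:165865154-166002678), ranked between 99.3 and 99.8 in all 6 libraries. Whether regions elsewhere in that part of chromosome 1 ranked as high was not tested. Zfp473, which encodes a zinc finger protein of the U7 processing complex, ranked between 82.8 and 95.8 for GATA4 and between 92.4 and 95.4 for GATA6. Casp8ap2, which encodes the histone locus body protein FLASH, ranked at 77.0, 96.6 and 94.6 for GATA4 and at 92.6, 67.9 and 30.2 for GATA6.

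The combined lists differed at other genes of this group. Npat, which encodes the S phase coactivator of histone genes, ranked at 98.2, 96.4 and 94.9 for GATA4 and at 14 and 97.7 in GATA6 replicates 1 and 2, with no region in replicate 3. Slbp, which encodes the stem loop binding protein, ranked at 67.5, 23.5 and 91.8 for GATA4 and had a region in no GATA6 library. Cramp1l behaved likewise, at 77.6, 77.2 and 93.1 for GATA4 and in no GATA6 library. Eri1, Cpsf3 and Ccne2 were in the GATA4 list without the GATA6 list, although Eri1 had a region in all 3 GATA6 libraries, at 93.3, 74.7 and 84.0. Cdk2, the kinase partner of cyclin E, was in the GATA6 list without the GATA4 list. Of the rest, Lsm10 and Lsm11 had a region in 3 libraries each, Cpsf2, Cstf2, Coil and Ccne1 in 1 each and Sympk in none.

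Of 11 histone genes taken as replication-independent, 4 were in the GATA4 list (36.4%) and 2 in the GATA6 list (18.2%). The shares of other genes were 19.2% and 13.5%. H2afv and H3f3b, which encode a variant of the H2A.Z kind and H3.3, were in both lists. H3f3b ranked at 89.5, 73.3 and 93.9 for GATA4 and at 84.7, 94.7 and 86.4 for GATA6. H2afx and Cenpa were in the GATA4 list only, and H2afy2 had no region in any library. With 11 genes these shares have wide errors and were not tested against the clustered histone genes.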

How the data were processed

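CUT&RUN libraries for GATA4 (3) and GATA6 (3) in XEN cells were used. Alignment to mm10 was done by the authors with Bowtie2 2.3.4.1 on read pairs. They removed duplicates, reads with mapping quality under 20, mitochondrial reads and blacklisted regions, and called regions in each library with SEACR 1.3. An IgG antibody is named among those used for CUT&RUN, but no IgG control is described for the call. The deposited lists give positions and the total and maximum signal (fragment pileup) of each region, unscaled for depth. The labels state 30000000 reads for each library, but how many remained after filtering is not given in the sources used here, so precision is given as an SD over libraries or an exact interval over genes. Combined lists hold regions present in all 3 replicates, and merging the library lists gave the same 8282 GATA4 and 5170 GATA6 regions. No column lacked a sample.

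Groups and replicate numbers came from the titles. Gene starts came from GENCODE M21 and sequence from GRCm38. Library values were compared by exact permutation tests over 20 assignments. The members and gene lists were chosen with earlier results of these data known. Named genes were those with a region in all 6 libraries, those of Hist3 and Hist4, the 5 of highest mean percentile for each factor, those listed for 1 factor and seen in no library of the other, and the pathway lists. Alternatives changed the window, the list length, the replicates required and the comparison genes. In a test on simulated data the gene assignment recovered 183 of 183 regions planted near isolated transcript starts. The same 1 kb rule set the right answers, so this checked the code only. Assignment among close or paired histone starts was not tested. The scripts ran in Python 3.11.15 with pandas 2.3.3, numpy 2.4.6, matplotlib 3.10.9 and scipy 1.17.1.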

Additional observations from a re-analysis of the deposited data

How the results depend on the processing

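Of 99 alternative values, 94 met the limit set for them, which was a count within 1.5 times the reported one, a combined-list excess within the exact interval of the reported one, or a difference between libraries of the same sign, and 5 moved further. The GATA6 excess of -0.110 points, whose interval spans 0, was positive in 11 of 14 alternatives. With library lists reduced to the 21223 regions of highest total signal, the GATA4 list held 17 histone genes and an excess of 11.2 points, and with lists of equal length the excess was 14.3 points. The GATA6 list grew to 27 histone genes and an excess of 14.2 points with at least 2 of 3 replicates required. Leaving out 1 library in turn gave 13 to 17 histone genes in the GATA6 list (16 without replicate 1 and 17 without replicate 3). The excess was then 0.949 to 8.03 points. Fewer lists had to overlap in these runs, and the share of other genes was 17.3% to 18.5%, against 13.5%. Why the excess rose was not tested. For GATA4, leaving out 1 library gave 28 to 32 genes and an excess of 18.4 to 25 points, beside 22.6 points with all 3. The differences between the factors ran from 8.33 to 11.8 genes, 6.5 to 10.5 regions and 8.13 to 14 points, with an exact permutation p of 0.1, or of 0.2 for the points without a GATA6 library. Leaving out repeated genes, testis genes or one gene of each pair was chosen after the data had been seen.

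Libraries of the same replicate number were not treated as paired in the main tests. Their deviations in the presence of regions, over the merged regions of all 6 libraries, correlated at 0.00102 to 0.00148. Calls made in single libraries enter this value, so it cannot show whether same-numbered libraries shared a culture or run. With the replicate block the differences were 10.3 genes, 9 regions and 11.3 points, with a sign-flip p of 0.25 (exact), the smallest that 3 pairs allow. Low maximum signals and unknown read numbers limit what the absence of a region shows in any library.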
